A study of Rattus norvegicus with 6 samples.

Results

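Nucleolar ribosome biogenesis factors build ribosomes: they transcribe, modify, fold and cut the ribosomal RNA precursor in the nucleolus and assemble it with ribosomal proteins. The group described here holds 40 genes, of 22573 gene rows used. They were chosen by symbol: the subunits of RNA polymerase I (Polr1), the Utp, Nop and Rrp families (29 genes with the polymerase), and 11 genes named singly. No expression level entered that name rule, but the group was proposed after the values of strain against control were known. All values of that contrast are therefore given as a description, and the number of these genes called is no independent evidence.

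RNA was sequenced from nucleus pulposus cells, which fill the soft core of the intervertebral disc, of Sprague Dawley rats. In 3 libraries the cells were under cyclic tensile strain, in which a Flexcell device stretches the cells' support by 18% at 0.2 Hz for 24 h, and 3 libraries carry the class label control. All 6 samples carry the same treatment text, and the controls are set apart by their titles and that class label. The labels give no age, sex, batch or source animal, so p-values measure only how far these samples spread, and that spread may be technical. Values are the authors' and were taken to be FPKM, a unit that the files do not name: fragments per kilobase of transcript scaled to the fragments mapped in each library. Over the rows used they sum to 317319, 308780 and 347508 in strain replicates 1 to 3. In control replicates 1 to 3 the sums are 346453, 331992 and 333457. Sequencing depth is unknown.

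RNA polymerase I copies the ribosomal DNA into one long precursor. Small nucleolar ribonucleoproteins (snoRNPs) then modify it: the box C/D kind adds methyl groups, and the box H/ACA kind makes pseudouridine. The small subunit processome, a large particle that holds the U3 snoRNP and the UTP proteins, folds and cuts the part that becomes the 40S subunit, while the PeBoW complex and other factors assemble the 60S subunit. Ribosome production is costly and follows growth, and the transcription factor MYC is known to drive many of these genes through the E-box, a short DNA motif that the circadian activators CLOCK and BMAL1 also bind.

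Because strain was studied here for its effect on the clock, the promoters were searched for that motif. RefSeq promoter windows of build GRCr8, 250 bases before and 50 after the gene start, were matched by symbol for 38 of the 40 genes, all but Bop1 and Utp23. The E-box CACGTG stood in 13 of these 38 windows (34.2%), against 9.66% of 8549 windows of genes tested here and 6.42% of all 33469 windows in the table. The letters read the same on both strands. The following windows of 30 bases show it in capitals, first in the 3 genes that fell under strain and hold it. Then come 4 of the 9 tested genes that hold it and were not called. Of these 4, Dkc1 and Fbl were called without strain replicate 3, and Utp18 in 2 of 13 alternative settings of the test.
Utp20: cagcactagctaCACGTGagaaaaagcaga
Rrp12: gctgagaatacaCACGTGggttctgctgtg
Rrp8: ggacgcgcgctaCACGTGggccagagcgta
Fbl: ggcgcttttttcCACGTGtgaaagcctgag
Dkc1: agcgtcccggcgCACGTGcgggccccaccc
Utp4: tgcgcacgcgcgCACGTGggaccggggcgg
Utp18, upstream copy: gtgagtgtcggtCACGTGgttcgaggcagc
Utp18, downstream copy: gcagtggggctcCACGTGaacgtctgcgtt

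These windows lie, in build GRCr8 and read on the strand of the gene, at chr7:25102959-25102988 (minus strand) for Utp20, chr1:250655298-250655327 (minus) for Rrp12 and chr1:169500443-169500472 (minus) for Rrp8. Those of Fbl, Dkc1 and Utp4 are at chr1:92597416-92597445, chrX:157751455-157751484 and chr19:51702204-51702233, all on the plus strand. The Utp18 copies are at chr10:79335830-79335859 and chr10:79335737-79335766 (minus). The motif begins 127 bases before the gene start in Utp20, 184 in Dkc1, 25 in Utp4 and 90 in the upstream copy of Utp18. In Rrp12, Rrp8, Fbl and the downstream copy of Utp18 it begins at base 4, 14, 22 and 4 of the gene. Utp18 was the 1 gene with a pair of copies among the 38 windows.

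The 200 bases before the start of Utp20 (chr7:25102850-25103049, minus strand) are shown whole, because Utp20 had the largest fall in level among the genes with the motif. The E-box is in capitals.
Utp20 promoter: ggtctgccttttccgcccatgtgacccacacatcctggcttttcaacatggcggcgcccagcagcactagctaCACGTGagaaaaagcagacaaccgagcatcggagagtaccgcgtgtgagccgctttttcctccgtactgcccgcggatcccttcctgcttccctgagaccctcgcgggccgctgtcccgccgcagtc

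Other motifs were searched on both strands. The ETS core CCGGAAG stood in 18 of the 38 windows (47.4%), against 18.9% of windows of tested genes and 8.75% of all windows. The NRF1 core GCATGCGC stood in 3 (7.89%, against 5.50% and 2.47%), those of Utp20, Npm1 and Nob1, and in Npm1 its 2 strand readings overlap. The motif CTCGCGAG stood in 1 (2.63%, against 1.84% and 0.723%), that of Npm1. A match is a string of letters, not a shown binding site.

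**Figure D1:**
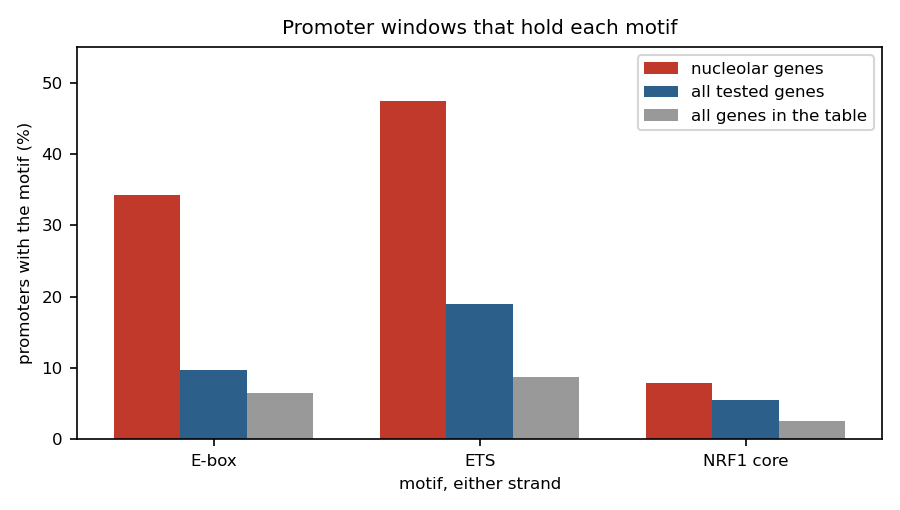
Percentage of RefSeq promoter windows (GRCr8) that hold the E-box, the ETS core or the NRF1 core on either strand, for the nucleolar genes (38 windows), all tested genes (8549) and all genes in the table (33469). The E-box stands in 34.2% of the nucleolar windows and the ETS core in 47.4%.

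Called genes and genes not called held the motifs as follows. Of the called genes with a promoter window, 3 of 12 held the E-box, against 9 of 24 of the tested genes that were not called. These 12 include Rrp1b, which was called higher, and leave out Utp23, which was called lower but had no window. The median log2 fold change was -0.23 in genes with the E-box and -0.16 in those without. For the ETS core the counts were 2 of 12 and 14 of 24, and the medians -0.17 with it and -0.26 without it.

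Of the 40 genes, 38 reached a mean of 1 FPKM over the 6 libraries and were tested with limma on log2(FPKM + 1), with 10180 genes in all and Benjamini-Hochberg adjustment over all of them. Under strain 12 of the 38 were called lower, 1 was called higher and 25 were not called at an adjusted p under 0.05. Over all tested genes 19.0% were called lower and 16.4% higher. The median log2 fold change of the 38 genes was -0.20, against -0.0123 over all tested genes, and 33 of the 38 values were below 0. In 17 of the 38 every strain library lay below every control library, and in 1 every strain library lay above, where all tested genes gave 28.0% and 24.0%. Changes were modest: the 12 falls were 1.23-fold to 1.83-fold as ratios of mean FPKM, and none of the 38 reached a 2-fold fall on the log2(FPKM + 1) scale. In these bulk samples fewer cells of a type and less RNA per cell cannot be told apart.

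**Figure D2:**
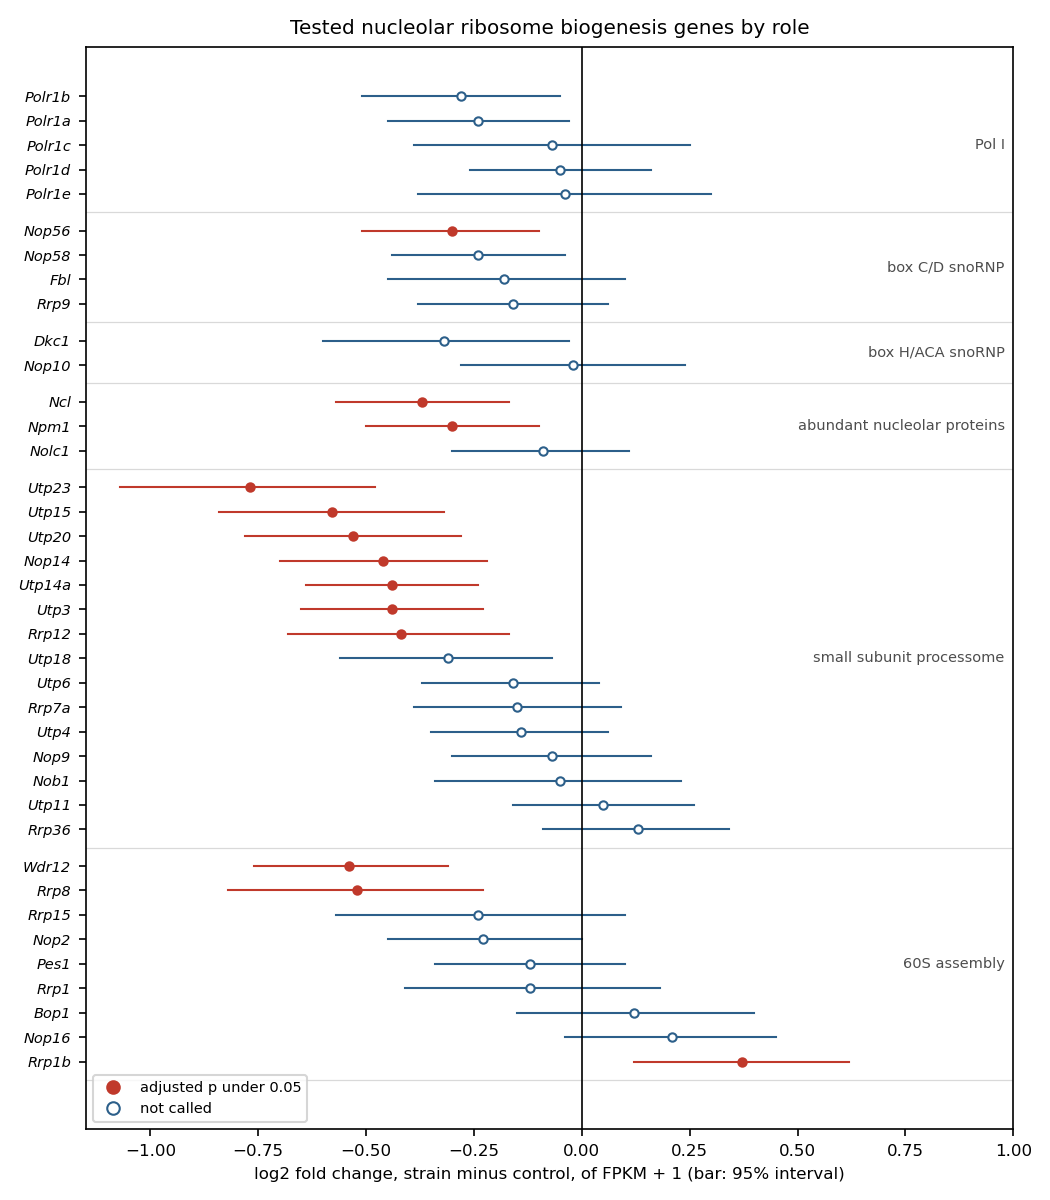
Log2 fold change, strain minus control, of log2(FPKM + 1) for the 38 tested genes grouped by role, with 95% intervals from limma. Filled red points are called at an adjusted p under 0.05 over all tested genes, open blue points are not: 12 filled points lie left of 0 and 1, Rrp1b, lies right.

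Levels spanned a wide range. Npm1 and Ncl, the nucleolar proteins nucleophosmin and nucleolin, had the highest levels of the group, at 125 and 107 FPKM over the 6 libraries, followed by Nop10 at 49.2 FPKM. The least expressed tested genes were Rrp8, Utp20 and Rrp1b, at 2.92, 3.03 and 3.32 FPKM. Nhp2, a core protein of the box H/ACA snoRNP, and Ebna1bp2, a 60S assembly factor, were under the filter, at 0.169 to 0.253 FPKM under strain and 0.167 to 0.420 FPKM in controls for Nhp2, and 0.150 to 0.845 and 0.260 to 0.383 FPKM for Ebna1bp2. No fold is given for either, and such low values in these files need not mean that the RNA is scarce. Polr2i and Polr2l, RNA polymerase II subunits that every cell uses, were also under the filter. Their means were 0.254 and 0.541 FPKM under strain, against 0.223 and 0.865 FPKM in controls.

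Of the RNA polymerase I subunits deposited under a Polr1 symbol 0 of 5 were called, where 19.0% of all tested genes were called lower and 16.4% higher. Further subunits, Twistnb, Cd3eap and Znrd1, are given with the older symbols. Polr1a, the catalytic subunit, had 3.29, 3.44 and 3.04 FPKM under strain, against 4.08, 4.05 and 3.97 FPKM in controls. Polr1b, the second largest subunit, had 2.98, 3.37 and 3.49 FPKM under strain, against 3.80, 4.45 and 4.37 FPKM in controls. In both genes all strain libraries lay below all controls, with log2 fold changes of -0.24 ± 0.09 and -0.28 ± 0.10 (SE; limma adjusted p = 0.069 and 0.059). Polr1c and Polr1d, which are shared with RNA polymerase III, and Polr1e, which takes part in initiation, overlapped between groups. Their log2 fold changes were -0.07 (95% interval -0.39 to 0.25), -0.05 (-0.26 to 0.16) and -0.04 (-0.38 to 0.30).

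Among 4 genes of the box C/D snoRNP 1 fell, the scaffold Nop56, with 18.8, 20.4 and 22.1 FPKM under strain against 26.0, 25.9 and 24.3 FPKM in controls (1.24-fold). The groups were apart, but the call was lost on leaving out any library except strain replicate 3 (adjusted p up to 0.10). Its partner scaffold Nop58 had 18.6, 16.9 and 17.6 FPKM under strain and 20.3, 22.9 and 20.2 FPKM in controls, also apart, and was not called (log2 fold change -0.24 ± 0.09 SE, adjusted p = 0.062 by limma). The methyltransferase fibrillarin, Fbl, had 18.9, 19.5 and 25.2 FPKM under strain and 26.2, 22.8 and 22.9 FPKM in controls: strain replicates 1 and 2 were low and strain replicate 3 lay among the controls. The U3 protein gene Rrp9 had a log2 fold change of -0.16 (95% interval -0.38 to 0.06).

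Of the box H/ACA snoRNP 0 of 2 tested genes were called, where 19.0% of all tested genes were called lower and 16.4% higher. Dkc1, which encodes the pseudouridine synthase dyskerin, had 14.2, 15.7 and 20.1 FPKM under strain, against 21.3, 21.8 and 19.4 FPKM in controls. Strain replicate 3 again lay within the control range, and without it Dkc1 was called (limma adjusted p = 0.0075, against 0.080 with all libraries; up to 0.24 over the alternatives). Nop10, a small core protein, had 48.9 ± 6.86 FPKM under strain and 49.5 ± 3.51 FPKM in controls (SD, n = 3 each), a log2 fold change of -0.02 with a 95% interval of -0.28 to 0.24.

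Of the abundant nucleolar proteins 2 of 3 (66.7%) fell, against 19.0% of all tested genes. Ncl, which binds ribosomal RNA and its genes, had 91.2, 91.0 and 97.2 FPKM under strain, against 129, 117 and 115 FPKM in controls (1.29-fold). Npm1, a histone and ribosome chaperone, had 108, 109.5 and 119 FPKM under strain, against 145, 135 and 134 FPKM in controls (1.23-fold). In both all strain libraries were below all controls. The call of Npm1 was lost without any 1 library other than strain replicate 3 (adjusted p up to 0.12), and that of Ncl without control replicate 1 (0.062). Nolc1, the snoRNP chaperone NOPP140, had 17.1 ± 1.43 FPKM under strain and 18.3 ± 0.598 FPKM in controls (SD, n = 3 each) and was not called.

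The small subunit processome and 40S factors, the largest role group with 15 of the 38 tested genes, held most of the falls. Of the 15, 7 (46.7%) fell, against 19.0% of all tested genes, with 0 rises and a median log2 fold change of -0.31. Among the other processome and 40S factors, given below, the share lower was 24.4% and the median -0.18. Utp23, whose yeast relative acts in the early steps of 18S ribosomal RNA processing, had 6.46, 4.39 and 5.33 FPKM under strain, against 10.6, 9.13 and 9.81 FPKM in controls, a 1.83-fold fall (log2 fold change -0.77 ± 0.13 SE). Utp15, of the UTP-A subcomplex that also acts in transcription of ribosomal DNA, had 4.18, 4.31 and 3.67 FPKM under strain, against 7.13, 6.95 and 5.64 FPKM in controls (1.62-fold). Utp20, a long helical scaffold protein, had 2.52, 2.46 and 1.93 FPKM under strain, against 3.58, 4.12 and 3.59 FPKM in controls (1.63-fold).

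In all 3 genes the groups were well apart and no control reached a strain value. Utp3, an early processome protein, had 16.3, 18.9 and 19.1 FPKM under strain, against 23.7, 25.9 and 25.1 FPKM in controls (1.37-fold). Nop14, a processome scaffold protein, had 9.88, 8.40 and 10.4 FPKM under strain, against 14.6, 13.2 and 12.7 FPKM in controls (1.41-fold). Utp14a, which recruits the helicase DHR1 in yeast, fell 1.41-fold to 7.34 ± 0.296 FPKM under strain, against 10.3 ± 0.510 FPKM in controls (SD, n = 3 each). Rrp12, a factor of pre-40S export, fell 1.42-fold to 4.51 ± 0.565 FPKM under strain, against 6.39 ± 0.657 FPKM in controls. Its call was lost without strain replicate 1 or 2 or control replicate 1 or 2 (adjusted p up to 0.069).

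The other 8 genes of the processome and 40S list were not called. Utp18 and Utp6, of the UTP-B subcomplex, had all strain libraries below all controls, with log2 fold changes of -0.31 ± 0.11 and -0.16 ± 0.09 (SE; limma adjusted p = 0.051 and 0.18). Utp4, a UTP-A protein like Utp15, had 13.3 ± 0.819 FPKM under strain and 14.8 ± 0.901 FPKM in controls (SD, n = 3 each). Nob1, the nuclease that makes the final cut at the end of 18S ribosomal RNA, had a log2 fold change of -0.05 (95% interval -0.34 to 0.23). Values above 0 were seen in Utp11 (0.05, interval -0.16 to 0.26) and Rrp36 (0.13, interval -0.09 to 0.34).

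Among 9 tested 60S assembly factors 2 (22.2%) fell and 1 (11.1%) rose, near the 19.0% and 16.4% of all tested genes. Wdr12, a member of the PeBoW complex, had 7.66, 6.51 and 6.62 FPKM under strain, against 11.2, 10.4 and 9.82 FPKM in controls (1.51-fold lower). Its PeBoW partners did not pass the test: Pes1 had 24.4, 23.8 and 29.0 FPKM under strain and 28.7, 27.9 and 27.3 FPKM in controls, and Bop1 12.9, 11.9 and 15.8 FPKM under strain and 13.0, 13.0 and 10.9 FPKM in controls. The log2 fold changes of the complex were thus -0.54 ± 0.10 for Wdr12, -0.12 ± 0.10 for Pes1 and 0.12 ± 0.12 for Bop1 (SE), and the differences between these genes were not tested.

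The value of Bop1 carries a further limit. In RefSeq GRCr8 the tendon factor gene Scx lies within the span of Bop1, and Scx had 14.3, 21.7 and 27.1 FPKM under strain, against 8.88, 9.38 and 7.62 FPKM in controls. Whether counting used strand is not given in the sources used here, so reads of the 2 genes cannot be told apart with certainty.

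Rrp8, a nucleolar methyltransferase of 28S ribosomal RNA, had 2.43, 2.59 and 1.67 FPKM under strain, against 3.53, 3.42 and 3.86 FPKM in controls (1.62-fold lower). Rrp1b, a relative of the 60S factor Rrp1 that is also known as a chromatin-associated protein, was the 1 gene that rose: it had 3.46, 4.0 and 4.13 FPKM under strain, against 2.43, 3.12 and 2.78 FPKM in controls (1.39-fold). Its call was lost without strain replicate 2 or 3 or control replicate 1 or 3 (limma adjusted p up to 0.12). Rrp1 itself had 16.3 ± 3.06 FPKM under strain and 17.6 ± 1.0 FPKM in controls (SD, n = 3 each). Nop16, a 60S factor, was higher without passing the test (log2 fold change 0.21 ± 0.11 SE, adjusted p = 0.17 by limma), and the methyltransferase Nop2 lower without passing it (-0.23 ± 0.10, adjusted p = 0.11).

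**Figure D3:**
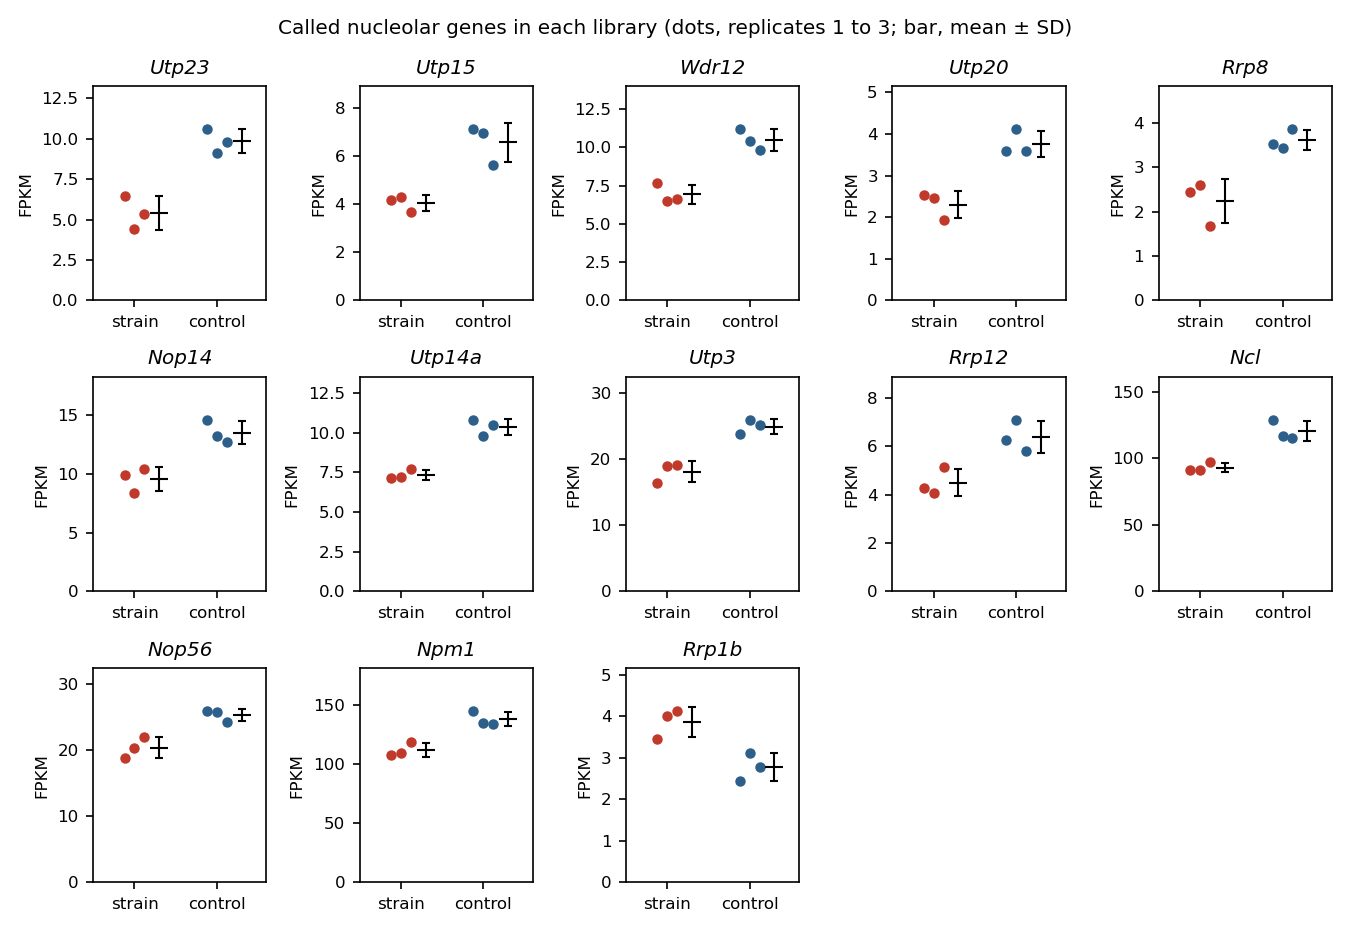
FPKM of the 13 called genes in each library, strain in red and control in blue, with the group mean and SD (n = 3 each) as a black bar beside the points and each axis from 0. In 12 panels every strain point lies below every control point, and in the panel of Rrp1b every strain point lies above.

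The adjusted p-values of the 13 called genes ran from 0.0021 to 0.030, and those of the 25 others from 0.051 to 0.90, where 5 had an unadjusted p under 0.05. Called in each alternative that tested them were 8 of the 13: Utp23, Utp15, Utp20, Utp14a, Utp3, Nop14, Wdr12 and Rrp8.

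Strain replicate 3 differed from the other strain libraries in these genes. Of the 38 tested genes 25 had their highest strain value there, 8 in strain replicate 1 and 5 in strain replicate 2, while 50.8% of all tested genes were highest in strain replicate 3. The mean log2(FPKM + 1) over the 38 genes was 3.61, 3.56 and 3.72 in strain replicates 1 to 3, against 3.86, 3.86 and 3.81 in control replicates 1 to 3, so the groups did not overlap. Over all tested genes it was 3.39, 3.38 and 3.42 under strain, against 3.44, 3.46 and 3.42 in controls. Without strain replicate 3 there were 17 genes called lower, the 12 of the full comparison and 5 more, Dkc1, Fbl, Nop2, Pes1 and Rrp15. Without any other library the count was 8 to 10.

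The deposited symbols are partly older ones. RefSeq pairs 5 rows of the files, Twistnb, Cd3eap, Znrd1, Gltscr2 and Diexf, with current symbols that the name rule would match. Of these 1 was called: Twistnb (now Polr1f), of the polymerase I stalk, had 5.86, 6.58 and 5.52 FPKM under strain, against 8.06, 9.89 and 7.24 FPKM in controls, and the call was lost in 5 of 13 alternatives. Cd3eap (now Polr1g) and Znrd1 (now Polr1h), also polymerase I subunits, were not called (limma adjusted p = 0.98 and 0.26). Their log2 fold changes were 0.01 ± 0.15 and 0.26 ± 0.17 (SE). With these rows 13 of 43 tested genes were called lower and the median log2 fold change was -0.16.

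Lists of other ribosome biogenesis genes, outside the name rule, were counted in the same way, and their shares lower are to be read against the 19.0% of all tested genes. Of 41 tested other processome and 40S factors 10 (24.4%) were called lower and 1, the helicase Ddx49, higher (median log2 fold change -0.18). The kinase Riok3 had the largest fall of that list, with 36.3, 36.4 and 31.5 FPKM under strain, against 78.6, 73.1 and 68.4 FPKM in controls (2.11-fold), followed by the helicase Ddx52 (1.99-fold). Of 50 tested 60S assembly factors 13 (26.0%) were lower and 0 higher (median -0.19). Sdad1, whose yeast relative acts in 60S export, fell 1.76-fold and the helicase Ddx55 1.66-fold. In the list of snoRNP assembly factors only Shq1, a dyskerin chaperone, was called, of 12 (median -0.00139), and that call was lost in 9 of the 12 alternatives that tested it.

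Of 14 tested factors of polymerase I transcription 6 (42.9%) were lower and 0 higher (median -0.24). The list includes Twistnb, Cd3eap and Znrd1, which were also counted with the older symbols. Of the 6, Top1 alone kept its call in each alternative. The calls of Rrn3, Taf1a, Taf1d, Twistnb and Ddx21 were each lost in some (limma adjusted p up to 0.12, 0.13, 0.14, 0.081 and 0.051). Top1, the topoisomerase that relaxes DNA ahead of polymerases, had 17.0, 15.7 and 13.2 FPKM under strain, against 23.9, 24.5 and 23.6 FPKM in controls (1.57-fold lower). Rrn3, the growth-regulated initiation factor of polymerase I, averaged 8.43 ± 1.32 FPKM under strain and 11.6 ± 1.55 FPKM in controls (SD, n = 3 each). Strain replicate 1 (9.89 FPKM) and control replicate 2 (9.85 FPKM) of Rrn3 overlap, and its call was lost in 7 of 13 alternatives. The architectural factor Ubtf (12.1 ± 1.20 and 10.6 ± 0.0803 FPKM in strain and control) and the treacle gene Tcof1 (5.79 ± 0.953 and 4.75 ± 0.495 FPKM) were not called, with log2 fold changes of 0.17 ± 0.09 and 0.23 ± 0.13 (SE).

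Of 18 tested genes of the RNA exosome and ribosomal RNA trimming 4 (22.2%) were lower (median -0.0515). The RNA tailing enzyme gene Papd5 fell 1.57-fold. Exosc6 had 3.25, 3.53 and 4.21 FPKM under strain, against 14.4 and 15.4 FPKM in control replicates 1 and 2 and 5.09 FPKM in control replicate 3, and its call was lost in 6 of 13 alternatives. Of 21 tested genes of the RNA polymerase III machinery, which makes 5S ribosomal RNA and transfer RNA, 4 were lower, the same 19.0% as over all tested genes, and 1 was higher (median -0.10). Both large subunits were among the 4: Polr3a fell to 4.69 ± 0.143 FPKM under strain, against 6.43 ± 0.159 FPKM in controls, and Polr3b to 3.70 ± 0.396 FPKM, against 5.27 ± 0.116 FPKM (SD, n = 3 each). Of 10 tested RNA polymerase II subunits 0 were lower and 1, Polr2j, higher (median -0.0928).

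In the MYC network 3 of 9 tested genes (33.3%) were lower and 1 (11.1%) was higher, against 19.0% and 16.4% of all tested genes. The median log2 fold change of the list was -0.30. Myc had 10.1, 10.2 and 13.8 FPKM under strain, against 31.3 and 31.0 FPKM in control replicates 1 and 2 and 13.7 FPKM in control replicate 3. The third control thus lay at the level of the strain libraries, and the call (limma adjusted p = 0.043) was lost in 7 of 13 alternatives (adjusted p up to 0.14). Of the 38 nucleolar genes 20 had their lowest control value in control replicate 3, and 9 in each of the other controls. The matching share over all tested genes was not computed. Relative to the control mean, the mean log2(FPKM + 1) of all tested genes was lowest there too. It was -0.018, against -0.004 and 0.022 in control replicates 1 and 2. Whether Myc had a part in the values of the nucleolar genes was not tested. The MYC antagonist gene Mxd1 fell 1.85-fold to 3.07 ± 0.181 FPKM under strain, against 5.68 ± 1.57 FPKM in controls, and the antagonist Mxd4 was higher under strain, at 23.1 ± 3.12 FPKM against 15.3 ± 1.33 FPKM (SD, n = 3 each).

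Genes for the proteins of the ribosome itself were counted beside them. Of 74 tested cytosolic ribosomal protein genes, taken by name pattern, 0 were called lower and 31 (41.9%) higher, where 16.4% of all tested genes were higher (median log2 fold change 0.34), and in 62 all strain libraries lay above all controls. Of 71 tested mitochondrial ribosomal protein genes 1 was lower and 14 (19.7%) higher (median 0.11), a share higher near that of all tested genes. Relative to the control mean, the mean log2(FPKM + 1) of the nucleolar genes was -0.231, -0.283 and -0.126 in strain replicates 1 to 3. That of the cytosolic ribosomal proteins was 0.234, 0.191 and 0.547. That of the mitochondrial ones was 0.049, 0.031 and 0.301 in strain replicates 1 to 3, against 0.017, 0.036 and -0.053 in control replicates 1 to 3, so strain replicate 3 alone stood above the controls by more than their range. Strain replicate 3 was the highest strain library in all 3 lists. The differences between the lists were not tested.

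**Figure D4:**
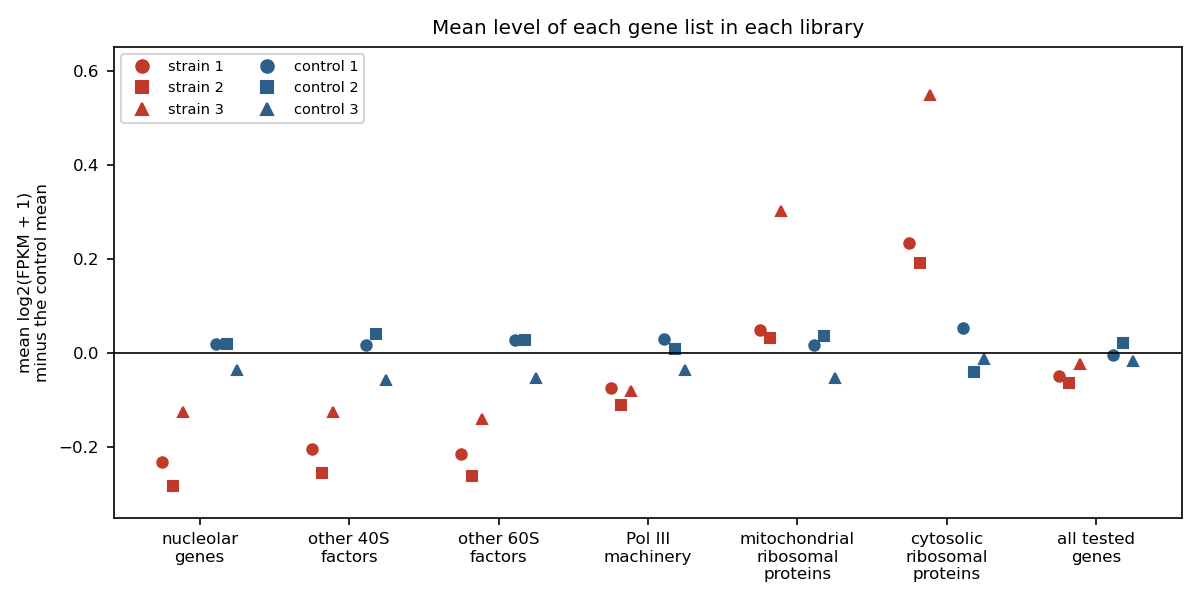
Mean log2(FPKM + 1) over the tested genes of each list in each library, minus the mean of the 3 controls for that list; strain in red to the left, control in blue to the right, with a symbol for each replicate. The nucleolar genes and the other 40S and 60S factors lie below 0 in each strain library, the cytosolic and mitochondrial ribosomal proteins above 0. The Pol III machinery and all tested genes also lie below 0 there. Their values are -0.075, -0.111 and -0.082, and -0.050, -0.064 and -0.023, in strain replicates 1 to 3.

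Marker lists were measured beside these genes, and their part in the values was not tested. Each count is to be read against the 19.0% of all tested genes called lower and the 16.4% called higher. Of 20 cell division genes 4 (20.0%) were lower under strain, near the 19.0% of all tested genes, and 0 higher, among them Pcna (1.53-fold lower) and Rrm2 (1.56-fold lower), and the summed level of the list was 106 to 120 FPKM under strain and 113 to 163 FPKM in controls, so the groups overlapped. Of 7 fibroblast and annulus markers, 6 were tested, 4 were higher and 1 lower, and the list summed to 5275 to 6556 FPKM under strain and 2200 to 2754 FPKM in controls, most of it Col1a1 (5085 ± 533 FPKM under strain and 1849 ± 275 FPKM in controls). Col3a1 had 547 ± 91.9 and 137 ± 35.0 FPKM, and Thy1, the marker that was lower, 255 ± 25.9 and 371 ± 11.5 FPKM in strain and control (SD, n = 3 each). Of 15 notochord and nucleus pulposus markers in the files 7 were tested and 5 were higher, with sums of 85.9 to 90.3 FPKM and 50.2 to 70.2 FPKM. Acan, Sox9 and Krt8 were expressed, while Shh and Noto were listed at 0 in every library and T, Krt18 and Krt19 stayed near 0. Col2a1 was under the filter, at 0.445, 0.838 and 1.41 FPKM under strain, against 0.0483, 0.0682 and 0.0104 FPKM in controls. A value of 0 in these files need not mean that the RNA is missing, since Gar1 and Polr2h, genes that every cell uses, are also listed at 0 in all 6 libraries. Of 10 leukocyte and macrophage markers 4 were tested, 2 lower and 1 higher, and Ptprc was near 0. The list summed to 20.1 to 23.4 FPKM under strain and 17.6 to 24.1 FPKM in controls. Most of each sum was Cd14, which was not called (mean 15.8 FPKM under strain, 14.5 FPKM in controls). Cd68 was 2.41-fold and Adgre1 2.83-fold lower under strain, and the call of Adgre1 was lost in some alternatives (limma adjusted p up to 0.093). Lyz2 was 13.3-fold higher, with means of 3.30 FPKM under strain and 0.249 FPKM in controls. Of 9 endothelial markers 1 was tested, Eng, which was higher, and the list summed to 17.5 to 21.1 FPKM under strain and 13.4 to 14.5 FPKM in controls, with Cdh5 listed at 0. All 5 erythroid markers were listed at 0.

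Of the 40 genes in RefSeq, 3, Ncl, Nop56 and Nop58, enclose small nucleolar RNA genes, 13 in all, with 3 in Ncl and 5 each in Nop56 and Nop58. These RNAs are known to be cut from the introns of their hosts, so a host level and the snoRNA level need not be equal. Named processed copies or other pseudogenes exist for 16 of the 40, with 20 for Npm1, 7 for Fbl, 6 for Pes1 and 5 each for Ncl and Nhp2. Reads shared with such copies could have been split by the authors' counting. Another protein-coding or long noncoding gene overlaps 11 of the 40 by span, among them Nop56, Npm1 and Wdr12 of the called genes. Reads of such overlapping genes cannot be told apart with certainty either.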

How the data were processed

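The authors' deposited values are FPKM, 1 value per gene symbol and library. This unit was inferred from the values and from the tools in the submitters' processing notes, which list DESeq, Cufflinks, Cuffdiff 2.2.1, HISAT2 2.0.4 and cutadapt 1.9.3 without role or order. The notes name the human build hg19 although the symbols are rat ones. Annotation and library preparation strand are not given in the sources used here. Of 22601 rows, 27 whose symbol had become a date and 1 with name and value run together were left out. Equal values at or above 1 FPKM were found in 0% of genes in each pair of libraries.

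Genes averaging 1 FPKM or more across the 6 libraries were tested on log2(FPKM + 1) with limma 3.58.1 in R 4.3.3 (trend, robust, two-sided, Benjamini-Hochberg adjusted p under 0.05). Log2 fold changes are on that scale, which understates low genes, and folds without log are ratios of mean FPKM. The genes, lists, roles and tests were chosen with earlier results of these data known. The rule for named genes takes all tested members of a role group of up to 4, and otherwise the 2 highest in level and the 2 largest and 2 smallest in fold change. It also takes the 2 called genes with the largest change of each other list, and Ubtf, Rrn3, Myc and Tcof1. Further members, markers, Ddx49, Mxd4, Mnt, Scx, further genes of the other lists and the ribosomal protein lists were named after their values were seen. Alternatives were a pseudocount of 0.1, no filter, a filter at 5 FPKM, 2 rescalings, another moderation, a replicate block and leaving out each library. Promoter sequences are RefSeq's (GRCr8).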

Additional observations from a re-analysis of the deposited data

How the results depend on the processing

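The count of nucleolar genes called lower was 12, and 8 to 17 with 1 library left out (8 without control replicate 1, 17 without strain replicate 3). It was 13 with the older symbols included, an alternative chosen after seeing the data. The median log2 fold change was -0.20 and stayed below 0 in each of the 13 alternatives, at -0.24 to -0.14 with 1 library left out. It was -0.14 with quantile normalization and -0.19 with the other rescaling. The 1 gene called higher, Rrp1b, was untested with a filter at 5 FPKM (count 0), and the count was 0 to 1 with 1 library left out. Over all tested genes 3608 were called, and 2375 to 3576 with 1 library left out (2375 without control replicate 1). In the other pathway lists 41 genes were lower and 4 higher, with 20 to 45 and 2 to 4 on leaving out 1 library (lower: 20 without control replicate 1, 26 without strain replicate 2; higher: 2 without control replicate 1 or 3). After quantile normalization the mean log2 level in control replicate 2 was 3.82, against 3.86 before.

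Directions turned in 9 of 308 values of 24 named genes, in genes not called. With quantile normalization the log2 fold changes were 0.05 for Nop10, 0.02 for Polr1d and 0.00 for Polr1e. With 1 library left out they ran from -0.12 to 0.07 for Nop10 (above 0 also at 0.02 without control replicate 1), from -0.21 to 0.09 for Polr1c and from -0.17 to 0.10 for Polr1e (0.03 without control replicate 2), lowest without strain replicate 3 and highest without strain replicate 2. Utp11 had -0.02 without control replicate 3. The cause was not tested. Of the other values 279 kept direction and call, 17 lost a call and 3 gained one.

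Deviations of same-numbered libraries had Pearson r across genes of 0.0325, 0.108 and -0.116 for numbers 1 to 3. Strain replicate 1 correlated best with control replicate 3 (0.0717) and strain replicate 3 with control replicate 1 (0.12). Strain replicate 2 correlated best with control replicate 2 (0.108). With values this low and mixed in sign, the numbers were not taken as pairs. With the replicate block 10 nucleolar genes were lower, all but Nop56 (adjusted p = 0.063) and Npm1 (0.067) of the 12, and 1 was higher, and 3116 genes were called in all.

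FPKM keep no read totals, so depth and counting error are unknown. With 3 libraries a group, an adjusted p above 0.05 does not show that a gene was unchanged.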
